A study of Rattus norvegicus with 18 samples.

Results

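A set of 1353 full-length transcript isoforms of rat brain was examined, each with a level of at least 50 TPM in each of 12 Illumina libraries. They were 1353 of 28268 isoforms, or 4.79%. TPM, corrected for length, give each isoform's share of the transcripts of a library, so a level can rise in a library when other isoforms take less of it. The levels themselves chose the members. That all of them were abundant everywhere is therefore a description of the choice, and the levels below are given as a description too.

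The animals were 4-week-old Sprague Dawley rats, and the labels name no genetic alteration or drug. The study's methods give male animals for the hippocampal slices and name no sex for the whole brains. The libraries fell into 6 groups of 2: hippocampus, somata and neuropil of the hippocampal CA1 region, and, from whole brain, ribosome-free, monosome and polysome RNA. Somata and neuropil were layers cut by hand from slices, so each held every cell type of its layer and not neurons alone. For the fractions, whole frozen brains were powdered and lysed, nuclei and membrane debris were spun out, and the cleared lysate was separated on a sucrose gradient with cycloheximide, which holds ribosomes on their RNA. The compartments thus came from CA1 alone and the fractions from the whole brain. The labels give poly(A) RNA for all 12 libraries, whereas the study's methods name a total RNA kit for the fractions. The labels do not say whether the 2 replicates of a group came from separate animals, and the p-values below then measure only the spread between these samples, which may be technical. The other 6 samples of the series, of ribosome footprints, are not analysed here.

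In polysome profiling, RNA sediments with the number of ribosomes it carries. Free RNA stays near the top of the gradient, RNA with a single ribosome follows, and RNA with several ribosomes travels farthest. In CA1 the cell bodies of pyramidal neurons lie in a compact layer, and the neuropil beside it holds their dendrites and axons together with glia and vessels, so an mRNA found in the neuropil can come from neuronal processes or from these other cells. RNA found in bulk tissue does not tell fewer cells of a type from less RNA per cell.

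The members held about the same share of RNA in the tissue libraries and a larger one in the ribosome-free fraction. They took 48.7% to 53.5% of all TPM in the 6 hippocampus, somata and neuropil libraries. Their share was 55.4% and 55.6% in polysome, 59.2% and 59.8% in monosome, and 71.3% and 70.9% in ribosome-free RNA. The 10 most abundant members of each library accounted for most of this difference in share. Without them the share was 44.6% to 50.8% in all 12 libraries, and the 10 alone took 20.5% of TPM in both ribosome-free libraries against 4.15% to 9.86% in the other libraries. The level of the median member was lowest in the ribosome-free fraction, at 136 and 144 TPM, and was 191 to 227 TPM in the other 10 libraries. Since the 3 tables of hippocampus, compartments and fractions were made separately, levels set across them were not tested.

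**Figure D1:**
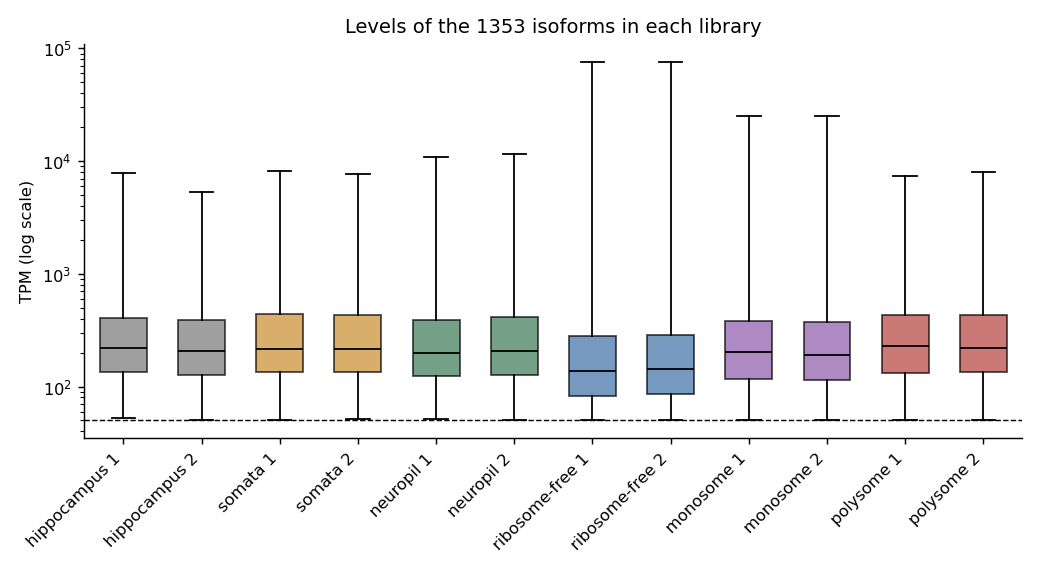
Levels of the 1353 members in TPM on a log scale, 1 box per library coloured by group. Boxes span the quartiles with the median as a line, whiskers reach the lowest and highest member, and the dashed line marks the floor of 50 TPM. The ribosome-free libraries have the lowest medians, 136 and 144 TPM, and the highest single value, 75857 TPM.

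The most abundant member, by the geometric mean over the 12 libraries, was RSN_LD1.109_ccs_115249_595_0_595_595_SUB0_pTNu_31, with a read length of 595 nt. The files pair it with no gene. Its level was 75857 and 74985 TPM in ribosome-free RNA, 24988 and 25308 TPM in monosome RNA, and 6013 and 8058 TPM in polysome RNA. In tissue it was 4333 and 5325 TPM in hippocampus, 1566 and 1734 TPM in somata, and 3304 and 3364 TPM in neuropil. The fractions did not overlap and fell in that order, with a 10.7-fold drop from ribosome-free to polysome RNA (limma log2 difference −3.44). The drop was −4.10 on the log2 scale after scaling by median ratios, but −0.54 and not called after quantile normalization (adjusted p = 0.29). Quantile normalization gives isoforms of equal rank the same value in each library. This isoform was the highest member in both ribosome-free and both monosome libraries. That scaling therefore cannot measure the size of its drop. Both neuropil libraries lay above both somata libraries.

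At the edge of the set, the 3 members with the smallest lowest value stood at 50, 50.03 and 50.1 TPM, and the 3 isoforms just outside had 49.99, 49.84 and 49.76 TPM in their lowest library. There were 239 isoforms that reached 50 TPM in 11 of the 12 libraries. In 88 of these the missing library was ribosome-free replicate 1 and in 29 it was ribosome-free replicate 2. The set's edge was therefore drawn most often by the fraction in which the median level was lowest. Another 2301 isoforms, called other abundant isoforms below, averaged 50 TPM or more over all 12 libraries but missed the floor in at least 1.

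Replicates of the members lay close to each other. On the TPM scale, the log2 difference between replicates had an SD of 0.20 in somata, 0.21 in ribosome-free, 0.22 in polysome and 0.25 in monosome RNA. It was wider in hippocampus, at 0.32, and in neuropil, at 0.38. Members that differed by more than 2-fold between replicates numbered 28 in neuropil, 13 in hippocampus, 6 in monosome, 4 in ribosome-free, 2 in somata and 1 in polysome RNA. The same SD for the other abundant isoforms ranged from 0.48 in polysome RNA to 0.95 in neuropil. A floor in both replicates removes isoforms that are high in 1 and low in the other, so the tighter spread of the members follows in part from the choice. Hippocampus held the single widest pair, a 10.7-fold difference.

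Across the 3 fractions the members were not spread evenly. The fraction range, the ratio of the highest to the lowest of the 3 fraction means, had a median of 2.37-fold, or 1.25 on the log2 scale, with quartiles of 0.83 and 1.72. It ran from 1.03-fold to 31.6-fold. Of the 1353 members, 182 (13.5%) stayed within 1.5-fold, 463 (34.2%) within 2-fold and 1139 (84.2%) within 4-fold. For comparison, 97.5% to 98.4% of members differed by less than 1.5-fold between the 2 replicates of a fraction. The median range of the other abundant isoforms was 3.17-fold, and 18.9% of them stayed within 2-fold. This difference was not tested, because a floor in every library itself narrows the range.

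Most often the highest mean was in polysome RNA. That was so for 739 members (54.6%), with 383 (28.3%) highest in monosome and 231 (17.1%) highest in ribosome-free RNA. The other abundant isoforms with all 3 means above 0 were similar. Of them 58.4% were highest in polysome, 28.5% in monosome and 13.1% in ribosome-free RNA, so the pattern is not particular to the members. After quantile normalization the counts were 564, 386 and 403, and after median ratios 586, 250 and 517, so polysome RNA was most often the highest under each scaling. On the TPM scale the lowest mean lay in ribosome-free RNA for 736 members, in polysome RNA for 318 and in monosome RNA for 299. Taking the 3 means as parts of a whole, the median member had 24.6% in ribosome-free, 32.0% in monosome and 39.9% in polysome RNA. These are parts of TPM and not of molecules, since each fraction's TPM sum to the same total whatever RNA it held.

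On the TPM scale, all 6 fraction libraries of 387 members (28.6%) lay in the order ribosome-free, monosome, polysome with no overlap between groups, beside 17.0% of all tested isoforms. The opposite order held for 111 members, 8.20%, beside 4.43%. Monosome RNA lay above both others without overlap in 328 members, 24.2%, near the 23.7% of all tested isoforms, and below both in 209 members, 15.4%, beside 5.43%. All 4 patterns thus occurred on this scale among isoforms chosen for being abundant throughout. They were not counted after other scalings, which changed the order of the fractions for many members. The floor left members with a smaller replicate spread than other isoforms, so nothing is read from the differences in share.

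**Figure D2:**
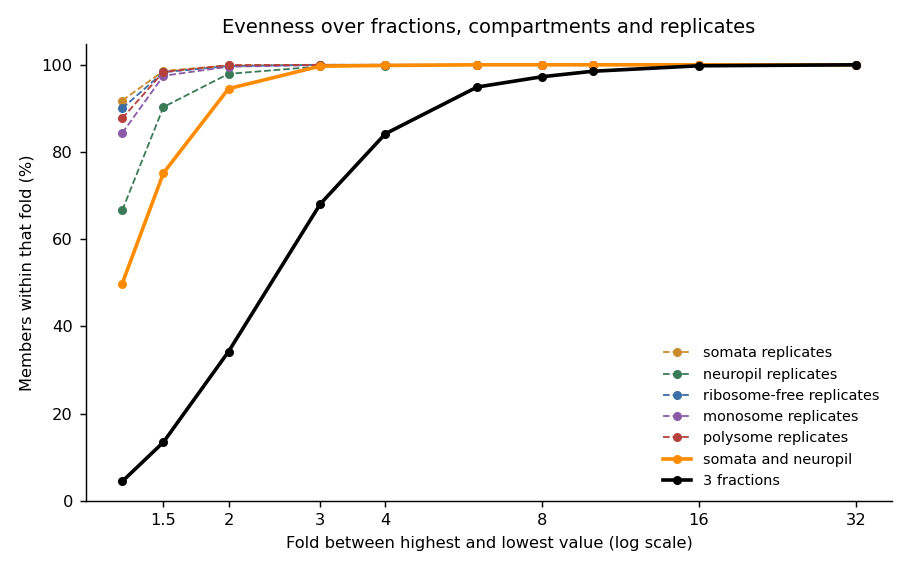
Share of the 1353 members (y axis, %) whose highest and lowest values lie within a given fold (x axis, log scale). Dashed lines compare the 2 replicates of a group, the orange line the means of somata and neuropil, and the black line the highest and lowest of the 3 fraction means. The fractions are a range over 3 means and the other lines are over 2 values, and points mark the folds counted. At 2-fold the share is 34.2% over the fractions and 94.5% over the compartments.

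For the fractions, limma was fitted on log2(TPM + 1) of all 19667 isoforms whose mean reached 1 TPM, two-sided, with p-values adjusted by Benjamini-Hochberg and called under 0.05. Fold changes from this fit are on the log2(TPM + 1) scale. Polysome RNA was called higher than ribosome-free RNA for 789 members (58.3%), where 34.1% of all tested isoforms were called higher, and lower for 242 (17.9%), beside 11.1%. The median fitted difference was 0.67 for members and 0.63 for all tested isoforms. The floor used the same libraries and left members with a smaller replicate spread than other isoforms, so the shares are set side by side and nothing is read from their difference.

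How the libraries were scaled changed this split. After quantile normalization 497 members were called higher and 419 lower, beside 20.5% and 17.6% of all tested isoforms. After scaling by median ratios 444 were higher and 455 lower, beside 21.3% and 17.7%. The median differences were then 0.09 and 0.01 for members, and 0.09 and 0.12 for all tested isoforms. Of the 789 called higher, 493 were still called higher after the former scaling and 444 after the latter, and of the 242 called lower, 234 and 242 were still called lower. The excess of members above ribosome-free RNA is thus a statement on the deposited TPM scale. Why the scalings differed was not tested.

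Between polysome and monosome RNA, 547 members (40.4%) were called higher in polysome, beside 11.6% of all tested isoforms, and 341 (25.2%) lower, also beside 11.6%. The median difference was 0.24 for members and −0.02 for all. After quantile normalization the counts were 455 and 397, beside 10.1% and 10.9%, and after median ratios 569 and 329, beside 12% and 10.1%. These counts rested on both replicates. Leaving out any polysome or monosome library lowered them, among the members and over all tested isoforms alike.

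Monosome RNA was called higher than ribosome-free RNA for 611 members (45.2%), beside 32.1%, and lower for 240 (17.7%), beside 7.3%. Here the median member, at 0.34, lay below the median of all tested isoforms, at 0.69. After quantile normalization 359 were higher and 384 lower, beside 16.1% and 13.7% of all tested isoforms, and after median ratios 210 were higher and 608 lower, beside 15.4% and 14.9%. The lower count fell when any fraction library was left out, among the members and over all tested isoforms alike. It fell most without a ribosome-free library among the members, and most without a monosome library over all tested isoforms. The 3 fraction comparisons share their libraries, so their calls are not independent of each other. In them, 426 members (31.5%) were called in all 3, beside 7.99% of all tested isoforms, and 129 (9.53%) in none, beside 43.0%. Nothing is read from these differences either.

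The widest range over the fractions, 31.6-fold, belonged to RNN_LD4.104_sub_68058_1947_1905_3762_1857_SUB0_pTNu_24, a read of 1857 nt without a gene name. It had 110.0 and 327 TPM in ribosome-free RNA, 4351 and 4293 TPM in monosome RNA, and 7408 and 6394 TPM in polysome RNA. The ribosome-free replicates differed more from each other than those of the other fractions, and both lay far below them (limma log2 difference of polysome against ribosome-free 5.17, SE 0.50, adjusted p = 0.00114). The second largest rise from ribosome-free to polysome RNA, within a range of 12.6-fold, was in RSN_LD4.106_ccs_12815_2991_0_2991_2991_SUB0_pTNu_57, with 69.6 and 178 TPM in ribosome-free, 472 and 487 in monosome, and 1577 and 1539 in polysome RNA. The largest fall, within a range of 16.5-fold, was in RSN_LD4.108_ccs_117507_2891_0_2891_2891_SUB0_pTNp_18, with 946 and 881 TPM in ribosome-free, 98.8 and 97.3 in monosome, and 57.7 and 53.1 in polysome RNA (log2 difference −4.02, SE 0.09, adjusted p = 9.12e-05). It was far more abundant in tissue, at 1526 to 3048 TPM over the 6 hippocampus, somata and neuropil libraries. The short isoform RSN_LD1.102_ccs_91821_444_0_444_444_SUB0_uNAp_28 followed, with 2920.3 and 2646 TPM in ribosome-free, 1064 and 1353 in monosome, and 162 and 179 in polysome RNA. All 4 kept their direction under each scaling, and no group of theirs overlapped another in the comparison of polysome with ribosome-free RNA.

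Gene names were known for 35 members of 34 genes, because published lists of the study pair these identifiers with genes. The lists held isoforms predicted to gain a signal peptide, with 5 members of 140 isoforms, isoforms predicted to lose one, with 26 of 384, and isoforms with a conserved open reading frame missing from annotation, with 4 of 27. A signal peptide is the leading stretch of a protein that sends it into the endoplasmic reticulum, so the named members are mostly genes of membrane, secreted and organelle proteins and are no sample of the 1353. Functions given below are those of the gene's known protein. The isoforms of Metrn, Nenf, Igfbp7, Ctsd, Bsg, Cpe, Chgb and Selenot are among the 26 predicted to lose the signal peptide. Whether these isoforms encode a protein of that function or location was not tested. Their read lengths ran from 673 to 3611 nt and their geometric mean levels from 83.0 TPM to 2731 TPM. Over the fractions, 6 of the 35 stayed within 1.5-fold and 12 within 2-fold, with a median range of 2.56-fold. Polysome RNA was called higher than ribosome-free RNA for 21, lower for 6 and neither for 8. Beside these, 34.1% of all tested isoforms were called higher and 11.1% lower, and 58.3% and 17.9% of the members. After quantile normalization the counts were 14 higher and 12 lower, beside 20.5% and 17.6% of all tested isoforms. After median ratios they were 11 higher and 12 lower, beside 21.3% and 17.7%. The isoforms of 6 genes, Naxe, Krtcap2, Tmeff1, Btbd6, Rell2 and Kifc2, were not called on the TPM scale and were called lower in polysome than in ribosome-free RNA after both other scalings.

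Among the named members the most even was Naxe, an epimerase that repairs damaged forms of the reduced nicotinamide cofactors. It had 176 and 158 TPM in ribosome-free, 156 and 147 in monosome, and 170 and 158 in polysome RNA, a range of 1.10-fold, with replicates that overlapped between polysome and ribosome-free RNA. It was even on the TPM scale alone, since polysome RNA was called lower than ribosome-free RNA after both other scalings, by −0.61 and −0.69 on the log2 scale. Ranges under 1.5-fold were also found for Tmem59, Ddrgk1, Shisa4, B3gat2 and Krtcap2. Tmem59, a membrane protein of the Golgi and endosomes, had 135 and 117 TPM in ribosome-free, 133 and 132 in monosome, and 179 and 163 in polysome RNA, so only the polysome libraries stood above the rest, a call on the TPM scale (adjusted p = 0.0256) that turned to −0.18 and −0.22 after the other scalings. Ddrgk1, which anchors a ubiquitin-like modification machinery at the endoplasmic reticulum, went the other way, with 185 and 195 TPM in ribosome-free, 163 and 146 in monosome, and 139 and 131 in polysome RNA. It was called lower in polysome than in ribosome-free RNA under all 3 scalings (limma log2 difference −0.49, SE 0.10, adjusted p = 0.0126, which ranged from 0.00108 to 0.0766 over the alternatives).

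Shisa4, of a family of membrane proteins, had 67.3 and 96.2 TPM in ribosome-free, 77.5 and 89.0 in monosome, and 134 and 99.7 in polysome RNA, with replicates about as far apart as the fractions and no call under any scaling. B3gat2, a glucuronyltransferase that makes the HNK-1 carbohydrate of neural cell surfaces, had 60.3 and 61.7 TPM in ribosome-free, 72.7 and 66.3 in monosome, and 89.0 and 90.5 in polysome RNA. Its replicates were close and its polysome libraries highest, a call (adjusted p = 0.00913) that turned to a log2 difference of −0.15 after quantile normalization. Krtcap2, a subunit of the enzyme complex that attaches sugars to new proteins, had 87.0 and 103 TPM in ribosome-free, 150.4 and 126 in monosome, and 96.2 and 90.4 in polysome RNA. Monosome RNA was its highest fraction on the TPM scale, but not relative to ribosome-free RNA after median ratios, and the other fractions overlapped. Polysome RNA was called lower than ribosome-free RNA after both other scalings, by −0.69 and −0.68 on the log2 scale.

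Slightly wider ranges, of 1.52-fold to 1.71-fold, belonged to Tmeff1, Cpe, Poldip2 and Pigx. Cpe, the carboxypeptidase that trims prohormones and neuropeptides in secretory granules, was the most abundant named member. It had 1187 and 1312 TPM in ribosome-free, 1715 and 1669.6 in monosome, and 1873 and 1945 in polysome RNA, a range of 1.53-fold with no overlap between the 3 fractions. Its rise from ribosome-free to polysome RNA (log2 difference 0.61, adjusted p = 0.00425) was called under quantile normalization too, at 1.16, but was −0.05 and not called after median ratios. Tmeff1, a transmembrane protein with follistatin-like domains, was highest in monosome RNA, at 190.2 and 181 TPM, while ribosome-free RNA had 139.6 and 142 TPM and polysome RNA 118 and 127 TPM, though after median ratios monosome lay below ribosome-free RNA. Its polysome libraries lay below ribosome-free RNA by −0.20, not called, and by −0.83 and −0.86, both called, after the other scalings. Poldip2 had 90.7 and 93.4 TPM in ribosome-free, 140.3 and 136 in monosome, and 144 and 145 in polysome RNA. Pigx, a subunit of a mannosyltransferase for glycolipid anchors, had 66.3 and 58.1 TPM in ribosome-free, 108 and 105 in monosome, and 93.2 and 101 in polysome RNA. In both the ribosome-free libraries were the lowest, and after either scaling their difference of polysome from ribosome-free RNA lay between −0.06 and −0.01.

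**Figure D3:**
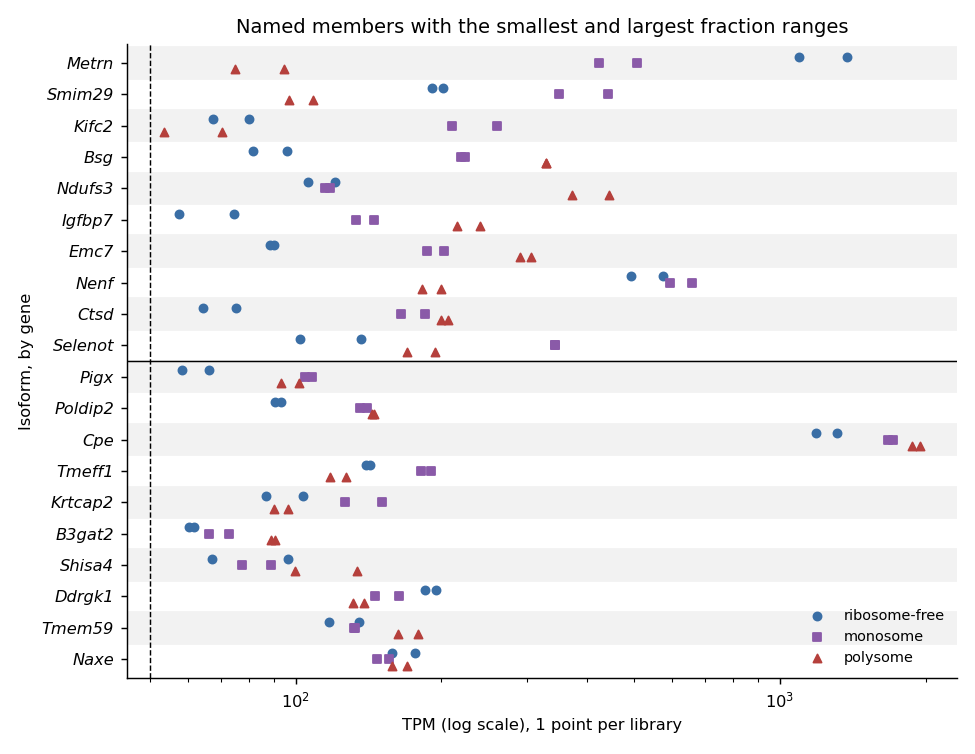
TPM on a log scale of 20 named members in the 6 fraction libraries, 1 point per library, with circles for ribosome-free, squares for monosome and triangles for polysome RNA. The 10 below the line have the smallest ranges over the fraction means, from 1.10-fold in Naxe, and the 10 above it the largest, up to 14.6-fold in Metrn. The dashed line marks 50 TPM.

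In 6 of the 10 named members with the widest range, ribosome-free RNA had the lowest mean, and in 5 of these polysome RNA had the highest. Ndufs3, a core subunit of respiratory complex I, had 106 and 120.4 TPM in ribosome-free, 115 and 118 in monosome, and 443 and 373 in polysome RNA. Only its polysome libraries stood apart, by 3.60-fold over ribosome-free RNA (limma log2 difference 1.84, SE 0.12, adjusted p = 0.000468). Bsg, a membrane protein that escorts lactate transporters to the cell surface, rose in steps instead, from 81.5 and 96.0 TPM in ribosome-free to 224 and 219.6 TPM in monosome and to 329 and 329 TPM in polysome RNA. Emc7, of the complex that inserts proteins into the endoplasmic reticulum membrane, had the same order, with 90.0 and 88.5 TPM, then 186 and 203 TPM, then 306 and 290.1 TPM.

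Igfbp7, a secreted binding protein of insulin-like growth factors that is abundant in vessels, had 57.3 and 74.6 TPM in ribosome-free, 133 and 145 in monosome, and 240.1 and 216 in polysome RNA. Ctsd, the lysosomal protease cathepsin D, had 64.2 and 75.4 TPM in ribosome-free, 185 and 165 in monosome, and 199.7 and 207 in polysome RNA. In Ndufs3, Bsg, Emc7, Igfbp7 and Ctsd, polysome RNA was called higher than ribosome-free RNA under all 3 scalings. Selenot, a selenoprotein of the endoplasmic reticulum, peaked in monosome RNA, where it had 344 and 343 TPM, while the ribosome-free libraries had 102 and 137 TPM and the polysome libraries 170.1 and 194 TPM. Its polysome libraries were called above the ribosome-free ones on the TPM scale, with a log2 difference of 0.62, but not after the other scalings.

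The other named members of wide range were low in polysome RNA. Metrn, whose known protein is secreted and acts on glia and on axons, had the widest range of any named member, 14.6-fold. Its level was 1376 and 1094 TPM in ribosome-free, 423 and 508 in monosome, and 74.8 and 94.8 in polysome RNA. The fractions fell in that order without overlap, and the difference of polysome from ribosome-free RNA was −3.85 on the log2 scale (limma, SE 0.18, adjusted p = 0.000258), −4.13 after quantile normalization and −4.51 after median ratios. Nenf, the secreted protein neudesin, had 492 and 575 TPM in ribosome-free, 592 and 658 in monosome, and 182 and 199.8 in polysome RNA. Its polysome libraries stood far below the others, 3.27-fold under monosome RNA.

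Kifc2, a kinesin motor of neurons, and Smim29, a small membrane protein named from the list of unannotated reading frames, were both highest in monosome RNA. Kifc2 had 80.2 and 67.5 TPM in ribosome-free, 210.0 and 260.5 in monosome, and 53.5 and 70.3 in polysome RNA, so the ribosome-free and polysome libraries overlapped near the floor on the TPM scale. After both other scalings polysome RNA was called lower than ribosome-free RNA, by −0.96 and −0.91 on the log2 scale. Smim29 had 191 and 202 TPM in ribosome-free, 349.8 and 442 in monosome, and 96.7 and 109 in polysome RNA. All 3 of its fractions were apart from each other.

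The remaining 15 named isoforms had ranges between 1.87-fold and 2.83-fold. Those called higher in polysome than in ribosome-free RNA were both isoforms of LOC301124 and those of Rcn2, Gabbr1, Glrb, Chgb, Rpn1, Lman2, Reep2 and Tmem9b. Gabbr1, a subunit of the GABA-B receptor, and Glrb, a subunit of the glycine receptor, rose 2.46-fold and 2.63-fold, and stayed called under both other scalings. Chgb, the granule protein chromogranin B, and Tmem9b were not called under either, and Rcn2 and the longer isoform of LOC301124 were called after quantile normalization but not after median ratios. Car11, a carbonic anhydrase-related protein, and Gpm6a, a neuronal membrane glycoprotein, were called lower, by 1.54-fold and 2.05-fold, under all 3 scalings. Those of Btbd6, Rell2 and Ckmt1 were not called on the TPM scale. Btbd6 was called lower by −0.97 and −0.92, and Rell2 by −0.70 and −0.77, after the other scalings, while Ckmt1 was not called under any. The 2 isoforms of LOC301124 differed in read length, with 721 and 3449 nt, and shared their direction, with 2.25-fold and 1.87-fold more TPM in polysome than in ribosome-free RNA. They may share reads, which RSEM divides between them by estimate.

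The genes of the published lists were also grouped by function, and a group's members were read with all of its isoforms in those lists. Isoforms of these genes outside the lists could not be paired with a gene and are not counted. Of 36 isoforms of 27 genes for folding and glycosylation in the endoplasmic reticulum, 8 were members: those of Ddrgk1, Emc7, Krtcap2, Lman2, Pigx, Rcn2, Rpn1 and Selenot. On the TPM scale polysome RNA was called higher than ribosome-free RNA for 6 of the 8 and lower for Ddrgk1. Beside these, 34.1% of all tested isoforms were called higher and 11.1% lower. After quantile normalization 4 were higher and 2 lower, beside 20.5% and 17.6% of all tested isoforms. After median ratios 3 were higher and 2 lower, beside 21.3% and 17.7%. Receptors and synapse proteins had 3 members of 32 isoforms (Gabbr1, Glrb and Gpm6a), secretory granules 2 of 14 (Chgb and Cpe), mitochondrial genes 2 of 33 (Ckmt1 and Ndufs3) and lysosomal genes 1 of 35 (Ctsd). Ckmt1, a mitochondrial creatine kinase, shared with Ndufs3 that polysome RNA was called higher than monosome RNA, by 2.60-fold and 3.50-fold. The counts are too small to set one group against another.

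Between the compartments the members lay closer together than between any pair of fractions. The median log2 difference of neuropil from somata was −0.12, with quartiles of −0.39 and 0.19 and a range from −1.61 to 2.12. Of the 1353 members, 674 (49.8%) had means within 1.25-fold, 1017 (75.2%) within 1.5-fold and 1279 (94.5%) within 2-fold. For pairs of fraction means the members within 2-fold were 718 (53.1%) for polysome and ribosome-free, 845 (62.5%) for polysome and monosome, and 962 (71.1%) for monosome and ribosome-free RNA. Of the other abundant isoforms, 87.1% lay within 2-fold. The mean was higher in somata for 846 members and higher in neuropil for 507. Fractions and compartments come from separate tables, and the contrast between them was not tested. Within both, 137 members (10.1%) stayed inside 1.5-fold, and over the means of all 6 groups 198 (14.6%) stayed inside 2-fold.

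No member passed the test of neuropil against somata. The limma fit over 4 libraries called 0 of 20393 tested isoforms (0.0% in each direction), and the smallest adjusted p was 0.179. At an unadjusted p under 0.05, 195 members (14.4%) were higher in neuropil, beside 7.57% of all tested isoforms, and 319 (23.6%) were lower, beside 7.26%. These unadjusted counts depended on the settings. With a constant prior variance 74 members were higher and 56 lower, beside 1399 and 993 of the 20393 tested isoforms. After quantile normalization 220 were higher and 250 lower, beside 1448 and 1423. The 2 neuropil libraries both lay above the 2 somata libraries in 335 members (24.8%), beside 22.8%, and both below in 612 (45.2%), beside 22.1%. The floor left members with a smaller replicate spread than other isoforms, so nothing is read from these differences in share. With 2 libraries a group and neuropil replicates that varied most of all groups, a missed threshold does not show that a level was the same in both layers. For neuronal genes with several isoforms, the study itself reported some isoforms significantly enriched in neuropil and others in somata. Its methods do not describe that test, and its calls were not compared with those given here.

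Markers of other cells moved with the compartments. Sums were taken only over marker isoforms that the published lists pair with a gene, not over every isoform of these genes. Over 7 genes, neuron markers were at 425 to 445 TPM in somata and 199 to 271 TPM in neuropil. Astrocyte markers, also of 7 genes, were at 428 to 508 TPM in somata and 750.1 to 968 TPM in neuropil. Markers of 4 oligodendrocyte genes were at 171 to 172 TPM in somata and 264 to 268 TPM in neuropil, those of 6 microglia genes at 90.4 to 101 TPM and 192 to 205 TPM, and those of 5 vascular genes at 356 to 378 TPM and 647 to 705 TPM. Each of the 5 sums was apart between the layers in both replicates. Of the marker isoforms, Chgb among 9 of neurons and Igfbp7 among 8 of vessels were members, and the 7 of astrocytes, 6 of oligodendrocytes and 8 of microglia held none. No marker isoform was listed at 0 in all 12 libraries. The part of these cells in the differences of single members was not tested.

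**Figure D4:**
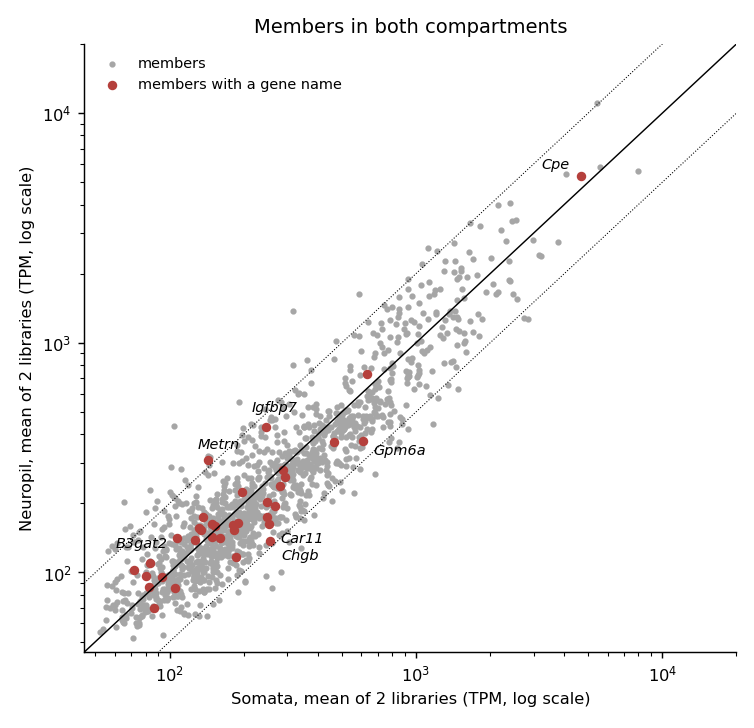
Mean TPM of each member in somata (x axis) and neuropil (y axis), both on log scales, each a mean of 2 libraries. Grey points are the 1353 members and red points the 35 with a gene name, the solid line marks equal levels and the dotted lines 2-fold differences. In all, 1279 members lie between the dotted lines, and of the named members only Metrn lies outside.

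Of the 35 named members, 29 stayed within 1.5-fold and 34 within 2-fold between the layers, and 21 had libraries that did not overlap, 8 higher in neuropil (22.9%, near the 22.8% of all tested isoforms) and 13 higher in somata (37.1%, beside 22.1%). Metrn had the largest difference, with 133 and 154 TPM in somata and 305 and 316 TPM in neuropil (log2 difference 1.11, SE 0.13, limma adjusted p = 0.179). Igfbp7 followed, with 239 and 255 TPM in somata and 408 and 453 TPM in neuropil, and then B3gat2, with 77.6 and 65.3 TPM against 111 and 93.7 TPM. In all 3 both neuropil libraries lay above both somata libraries. Igfbp7 is itself one of the vascular markers whose sum was higher in neuropil. That sum, of 356 to 378 TPM in somata and 647 to 705 TPM in neuropil, includes Igfbp7's own level and is not independent of it.

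Chgb had the largest difference in the other direction, with 251 and 262 TPM in somata and 106 and 167 TPM in neuropil. Its log2 difference was −0.94 (SE 0.25, limma adjusted p = 0.249). It is one of the neuron markers whose sum was lower in neuropil. That sum, of 425 to 445 TPM in somata and 199 to 271 TPM in neuropil, includes Chgb's own level and is not independent of it. Gpm6a had 659 and 557 TPM in somata and 509 and 242 TPM in neuropil. Car11 had 233 and 274 TPM in somata and 139.6 and 184 TPM in neuropil. For Gpm6a the neuropil replicates differed more from each other than neuropil replicate 1 differed from the somata. The most abundant named member, Cpe, was close in both layers, with 4557 and 4800.1 TPM in somata and 4997 and 5625 TPM in neuropil.

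Among members without a gene name, the largest ratio of mean TPM in neuropil over somata was 2.12 on the log2 scale, in RNN_LD4.108_ccs_39029_2166_0_2166_2166_SUB0_uNAp_33. It rested on 1 library, since neuropil replicate 1 had 2365 TPM and replicate 2 had 391 TPM, against 310 and 325 TPM in somata. On the fitted log2(TPM + 1) scale, which averages the logarithms of the replicates, its difference was 1.60, below the 2.0 of RSN_LD3.109_ccs_14269_1012_0_1012_1012_SUB0_pTNp_31. The latter had 572 and 296 TPM in neuropil and 84.7 and 124 TPM in somata, and was one of the members with a steep rise from ribosome-free RNA, at 620 and 734 TPM, to polysome RNA, at 3973 and 3697 TPM. Lower in neuropil were RNN_LD3.105_ccs_111874_2124_0_2124_2124_SUB0_pNAp_27, with 73.4 and 97.1 TPM against 218 and 302 TPM in somata, and RSN_LD4.105_ccs_47488_2425_0_2425_2425_SUB0_pTNp_32, with 62.5 and 138 TPM against 312 and 255 TPM. None of the 4 passed the test, and in all 4 the layers did not overlap.

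The levels of the members went together most closely among the tissue libraries. Across the 1353 members, Pearson's r between group means on the log2 scale was 0.92 between somata and neuropil and 0.91 between hippocampus and each layer. It was 0.82 between ribosome-free and monosome, 0.69 between monosome and polysome and 0.63 between ribosome-free and polysome RNA. The hippocampus was closest to polysome RNA among the fractions, at 0.76, with 0.66 for monosome and 0.65 for ribosome-free RNA. These correlations are across isoforms, which share libraries and are not independent replicates. The fractions came from whole brain and the tissue libraries from hippocampus alone.

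The members were shorter than the other isoforms. Read lengths were taken from the identifiers, in which the length equals the end minus the start of the read for all 28268 isoforms. The median was 1654 nt for members, with quartiles of 1054 and 2496 nt and a range of 402 to 14609 nt, against 2104 nt for the other abundant isoforms and 2235 nt for all isoforms. Length enters the choice of the members through TPM, which divide by length, so the difference was not tested. Of the isoforms of up to 700 nt, 14.3% were members, and of those of 701 to 1000 nt 13.4%, against 2.83% of those of 3001 to 4000 nt and 4.04% of those over 4000 nt. Identifiers of the circular consensus kind made up 74.9% of members and 72.4% of all isoforms.

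The shortest members were distributed differently over the fractions. In the 115 members of up to 700 nt the median log2 difference of polysome from ribosome-free RNA was −0.32, and that of polysome from monosome RNA was −0.84. The limma fit called 25 of them higher in polysome than in ribosome-free RNA and 50 lower, or 21.7% and 43.5%, beside 12% and 30.3% of the 624 tested isoforms of up to 700 nt. After quantile normalization 14 were higher and 64 lower, beside 7.21% and 40.4%, and after median ratios 8 and 74, beside 6.41% and 42.1%. The median fitted difference of the short members lay below that of the longer members under each scaling, at −0.34 and 0.73 on the TPM scale, −0.68 and 0.14 after quantile normalization, and −1.0 and 0.07 after median ratios. The other differences by length class are on the TPM scale. In the 182 members of 701 to 1000 nt the medians were 0.51 and 0.13, and in the 5 longer classes the median of polysome over ribosome-free RNA was 0.61 to 0.90. Polysome over monosome RNA was highest in members of 1501 to 2000 nt, with a median of 0.60, and was 0.07 in the 55 members over 4000 nt. The quartiles of neighbouring classes overlapped, and the median of the shortest class lay below the lower quartile of every class from 1001 nt on in both ratios. Across the 1353 members the log2 length went with the difference of polysome from ribosome-free RNA at a Pearson's r of 0.27 and a Spearman's rho of 0.20, and with the difference of neuropil from somata at −0.06 and −0.06. The share of each library's RNA below a given length was not known, and the part of length in these differences was not tested.

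**Figure D5:**
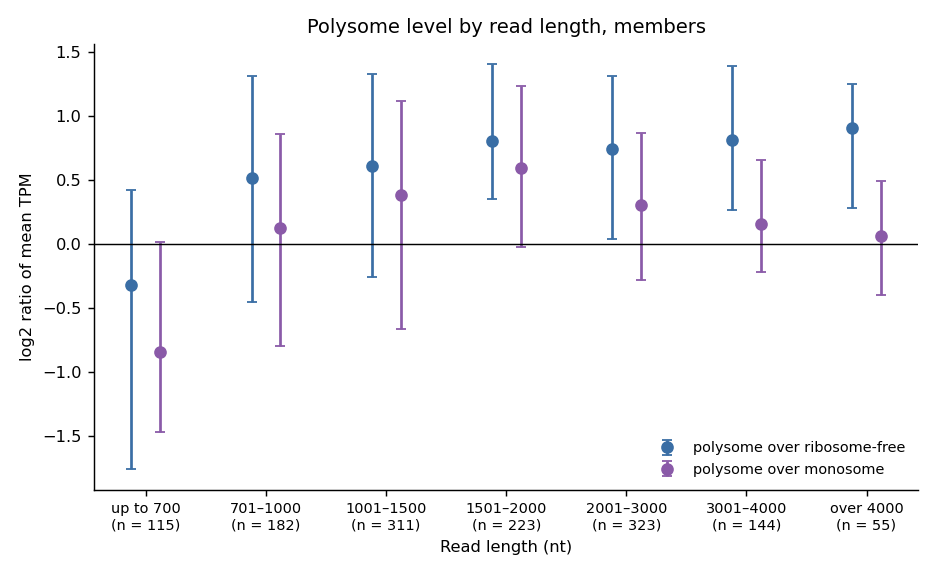
Log2 ratio of mean TPM in polysome over ribosome-free RNA (blue) and over monosome RNA (purple) for the members in 7 classes of read length in nt, with the number of members under each. Points are medians over members and bars span the quartiles of members, not an error. The 115 members of up to 700 nt have medians of −0.32 and −0.84, below those of every longer class.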

How the data were processed

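Isoform levels were taken from 12 libraries, 2 in each of 6 groups, all of which carried labels for group and replicate. The authors removed adapters with flexbar, mapped reads with Bowtie 2 to the full-length transcripts and estimated levels with RSEM, whose version is not given in the sources used here, and the deposited values are TPM with 2 decimals in 3 tables. RSEM divides reads that fit several isoforms by estimate, and the stated RSEM arguments are for paired reads although the hippocampus reads are described as single-end. Depth is unknown, because TPM keep no counts, so neither intervals nor detection limits were computed.

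Members had at least 50 TPM in each library. Tests used limma 3.58.1 in R 4.3.3 (trend of the prior variance, two-sided, Benjamini-Hochberg, threshold 0.05) on log2(TPM + 1), over every isoform whose mean in the table reached 1 TPM, in 1 fit of 6 fraction libraries and 1 of 4 compartment libraries, without the replicate number as a term. Counts and medians used Python 3.11.15 with pandas 2.3.3, plots matplotlib 3.10.9. Members, gene lists and tests were chosen with earlier results of these data known.

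Gene names came from lists published with the study, which matched 551 of 551 identifiers, and 33 of the 34 member genes stood in a RefSeq table. Named isoforms were described by this rule: the 10 widest and 10 narrowest ranges over the fractions, the 3 largest differences each way between layers without overlap, and of isoforms without a name the most abundant and at most 2 each way per comparison. Coordinates and sequences were not used here, because the tables hold identifiers and TPM only.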

Additional observations from a re-analysis of the deposited data

How the results depend on the processing

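Alternatives changed the floor, the pseudocount (0.1 or 5), the filter on the mean (none or 5 TPM), the scaling, the prior variance and the replicate term, or left out each library in turn. Unless named below, counts stayed within 1.5 times the value given and medians within 1 SD of the values from single replicates. The set held 2615 isoforms at a floor of 25 TPM and 646 at 100 TPM, with median read lengths of 1817 and 1426.5 nt. The median range over the fractions was 1.09 on the log2 scale after quantile normalization and 1.14 after median ratios, and the median difference of neuropil from somata was −0.057 after quantile normalization. After quantile normalization polysome against ribosome-free RNA gave 497 higher and 419 lower members and monosome against ribosome-free RNA 359 and 384, and after median ratios 444 and 455, and 210 and 608. In an alternative chosen after seeing the data, 403 members were highest in ribosome-free RNA after quantile normalization and 517 after median ratios, with 250 highest in monosome RNA after the latter. With a constant prior variance, 363 members were higher in polysome than in monosome RNA and 156 were lower in monosome RNA than in the ribosome-free fraction. Neuropil against somata then gave 74 higher and 56 lower members at an unadjusted limma p under 0.05. The unadjusted counts of that comparison also moved when a somata library was left out. With 1 library left out, a group of 1 is assumed to vary like the others. Polysome against monosome RNA then gave 272 to 513 higher and 200 to 301 lower members, and monosome against ribosome-free RNA 154 to 208 lower. Neuropil against somata gave 0 calls under every alternative run, with a smallest adjusted p of 0.0812, without neuropil replicate 2. The cause of these changes was not tested.

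In the study's methods, fractions were collected from a gradient and both layers were cut from each slice. Libraries of equal replicate number may therefore share a source, which the labels do not state. Deviations of equal number correlated at −0.01 to 0.03, which does not show that the libraries were unpaired. A replicate block gave 761 higher and 223 lower members for polysome against ribosome-free RNA and 477 and 293 for polysome against monosome. It gave 559 and 211 for monosome against ribosome-free RNA, and 0 for neuropil against somata.

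Of 87 comparisons of 50 single isoforms, 18 turned sign under at least 1 alternative, and none was called once turned (smallest adjusted p 0.227). Of the 18, 7 had been called on the TPM scale, all higher in polysome than in ribosome-free RNA, with log2 differences of 0.44 to 0.64: B3gat2, Tmem59, Selenot, Poldip2, Cpe, Pigx and Tmem9b. Another 6 comparisons, all lower in polysome than in ribosome-free RNA, were called after both other scalings and not on the TPM scale. For polysome against ribosome-free RNA the log2 difference after quantile normalization and median ratios was −0.16 and −0.14 for Shisa4, −0.15 and −0.10 for B3gat2, −0.045 and −0.086 for Ckmt1, −0.18 and −0.22 for Tmem59, −0.014 and −0.012 for Poldip2, −0.059 and −0.013 for Pigx and −0.079 and −0.055 for Tmem9b, and after median ratios −0.040 for Selenot and −0.048 for Cpe. For neuropil against somata it was −0.063 for Cpe, 0.0057 for Ddrgk1 and 0.052 for Rcn2 after quantile normalization. With 1 library left out, the difference of polysome from ribosome-free RNA ran from −0.15 to 0.10 for Krtcap2 and from −0.11 to 0.048 for Naxe, and that of neuropil from somata from −0.34 to 0.93 for Shisa4, −0.044 to 0.41 for Ctsd, −0.15 to 0.029 for Ddrgk1, −0.063 to 0.17 for Lman2, −0.11 to 0.16 for Rell2 and −0.16 to 0.047 for Rcn2. These single isoforms were a chosen part, and over all members some calls did reverse. For polysome against ribosome-free RNA, 3 members called higher were called lower after quantile normalization and 2 after median ratios. In the same comparison 2 called lower were called higher after quantile normalization. For monosome against ribosome-free RNA, 18 called higher were called lower after median ratios. Depth limits what the TPM can show by an amount that is unknown.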
